A study of Mus musculus with 6 samples.

Results

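The mitochondrial carriers of the SLC25 family were followed in the muscle of wild-type (WT) mice and of mice whose muscle fibers lack Tfeb, the gene of the transcription factor TFEB (Tcfeb in older nomenclature). The family was taken as every gene whose probe sets carry a single symbol made of Slc25a and a number, with the exception of Slc25a11, Slc25a12, Slc25a13 and Slc25a20. This rule found 30 genes among the 12393 genes with a probe set of their own, read by 61 probe sets. The rule itself reads symbols and no expression values, and each gene was represented by its brightest probe set, the one with the highest mean over the 6 arrays. Of the 4 genes left out by the rule, 3 have a probe set.

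The series holds 3 WT and 3 TFEB KO mice of the C57BL/6 strain, aged 1 month, with 1 Affymetrix array per mouse made from total RNA of muscle. The KO mice came from a cross of Tcfeb floxed mice with MLC1f-Cre mice, in which the Cre recombinase is driven by a promoter of muscle fibers, so other cells of the tissue keep the gene. The sources used here name neither the muscle sampled nor whether the WT mice carried Cre or the floxed allele. The values are log2 intensities made by the authors with RMA, a procedure that subtracts background, brings the arrays to a common distribution and combines the probes of each probe set, and every difference below is a log2 fold change of TFEB KO against WT on that scale.

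The SLC25 proteins form the largest family of transporters of the inner mitochondrial membrane. They are small proteins that alternate between facing the matrix and facing the space between the membranes, and most exchange one metabolite for another, which links the pools of ATP, phosphate, amino acids, nucleotides and cofactors inside mitochondria to those of the cytosol. Muscle, which makes most of its ATP in mitochondria, is known for large amounts of the ADP/ATP carrier and of the phosphate carrier. A few members lie elsewhere, such as Slc25a17 in peroxisomes and Slc25a46 in the outer mitochondrial membrane.

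None of the 30 carriers passed the test in TFEB KO muscle (limma, adjusted p under 0.05), in either direction. Over all 12393 genes, 0.702% were called lower and 0.871% higher. The smallest adjusted p among the carriers was 0.104, for the NAD carrier Slc25a51, and the largest was 0.997, for the orphan carrier Slc25a53. At an unadjusted p under 0.05, 6 of the 30 were lower in TFEB KO, against 8.66% of all genes, and 1 was higher, against 8.49% of all genes. The 6 lower ones were Slc25a25, Slc25a42, Slc25a22, Slc25a29, Slc25a51 and Slc25a3, and the higher one was Slc25a36. In 4 of the 30 every TFEB KO array lay below every WT array (12.9% of all genes), and in 1 every TFEB KO array lay above (10.8% of all genes).

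Fold changes of the family ran from -0.61 to 0.30, with 21 carriers below 0 and 9 above. Their median was -0.06 (quartiles -0.21 and 0.01), beside a median of -0.01 over all genes (quartiles -0.13 and 0.11). Only Slc25a25 differed by at least 1.5-fold, and 14 carriers lay within 0.1 of 0. The median deviation of the 30 carriers from their WT means was 0.04, -0.00 and -0.01 on the WT arrays and -0.03, -0.07 and -0.12 on the TFEB KO arrays. All 3 TFEB KO arrays were thus below the WT arrays in this median, by a small amount. Deviations are taken from the WT mean, which places the WT arrays around 0. Over all genes the median deviation was 0.01, 0.01 and -0.01 on the WT arrays and -0.01, 0.02 and -0.05 on the TFEB KO arrays. TFEB KO replicate 3 was thus the lowest array over all genes as well. Leaving out 1 array at a time moved the median fold change of the carriers between -0.12 (without TFEB KO replicate 1) and -0.0379 (without WT replicate 1). It was -0.11 without TFEB KO replicate 2 and -0.0969 without WT replicate 3.

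The precision of the arrays bounds what could be seen. The 95% intervals of the carriers reached 0.195 to 0.524 on either side of the estimate (median 0.272), and a carrier would have had to differ by 0.43 to 1.17 (median 0.61), depending on its spread, to pass the threshold. The interval lay within 0.5 of 0 for 20 carriers and within 1 of 0 for 29, the exception being Slc25a25. Standard deviations (SD) between mice were 0.022 for Slc25a4 to 0.43 for Slc25a25 in WT (median 0.11) and 0.030 for Slc25a23 to 0.35 for Slc25a30 in TFEB KO (median 0.14). The smallest p that an exact permutation test of 3 arrays against 3 allows is 0.10.

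**Figure D1:**
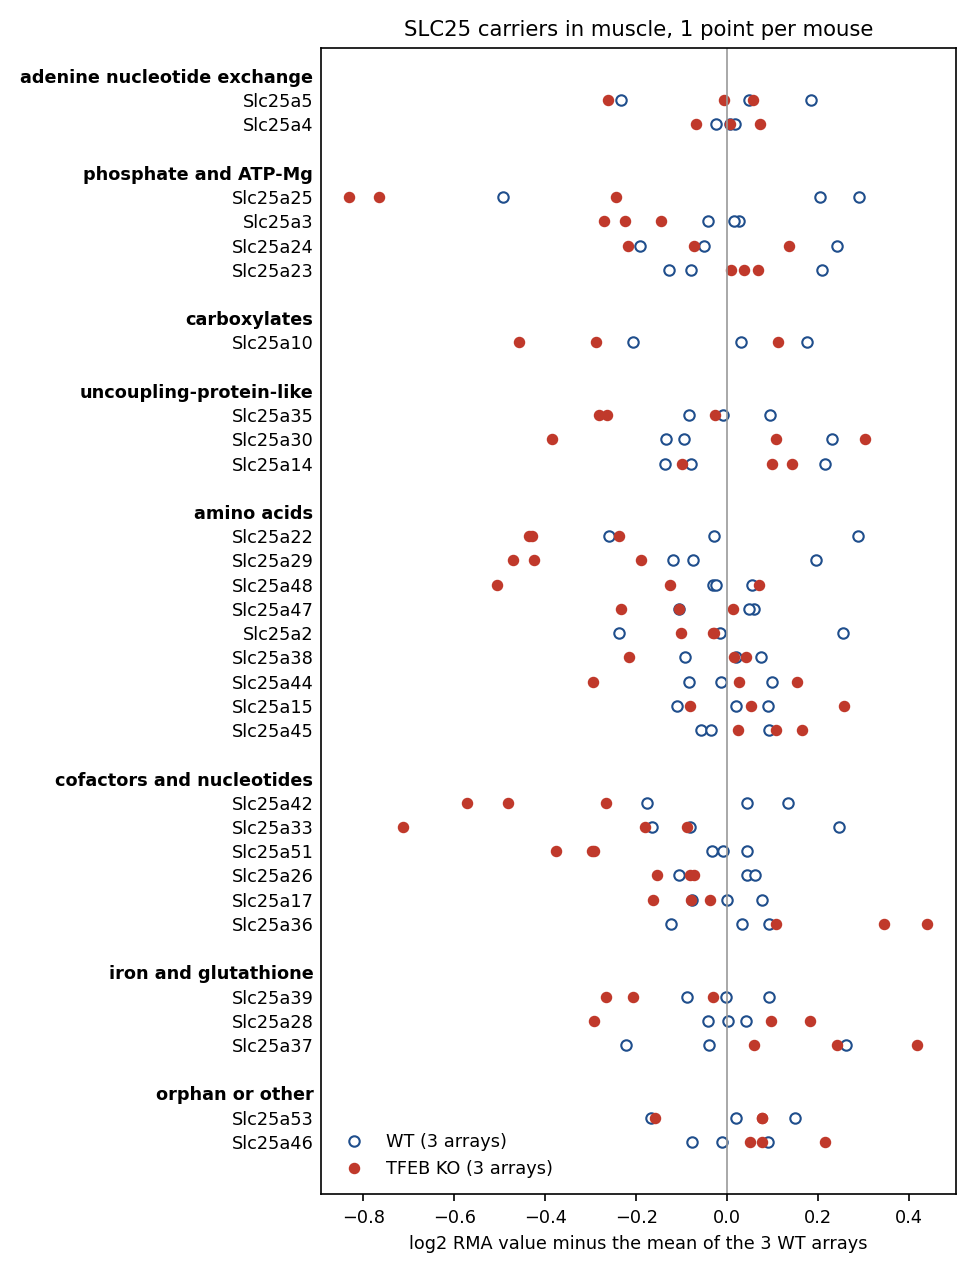
Each row is an SLC25 carrier, grouped by substrate, with open circles for the 3 WT and filled circles for the 3 TFEB KO arrays, and the horizontal axis gives the log2 RMA value minus the mean of the 3 WT arrays. Filled and open circles mix in most rows and separate fully in 5, with TFEB KO below WT for Slc25a3, Slc25a29, Slc25a42 and Slc25a51 and above WT for Slc25a36.

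Across the series the labels held: Tfeb itself read 8.71 ± 0.22 (SD, n = 3) in WT and 7.12 ± 0.10 (SD, n = 3) in TFEB KO, with an adjusted p of 0.0079 by limma. The sources used here do not say if its single probe set falls within the floxed segment. The tissue label also held, since the 8 markers of skeletal muscle, among them Acta1 and Ckm, read 13.31 to 14.93 on all arrays. In bulk tissue, fewer cells of a type and less RNA per cell cannot be told apart. Most macrophage, endothelial and tendon markers moved with genotype. Of these lists, the endothelial Tek (-0.03) and the tendon Scx (-0.02) hardly differed. All 8 macrophage markers were above 0 (median 0.93, 4 past the test, with array medians of -0.38 to 0.35 in WT and 0.74 to 1.33 in TFEB KO), all 8 endothelial markers were below 0 (median -0.64, 4 past the test, with array medians of -0.0099 to 0.044 in WT and -0.77 to -0.49 in TFEB KO), and all 4 tendon markers were below 0 (median -0.78, 3 past the test, with array medians of -0.033 to 0.023 in WT and -0.79 to -0.76 in TFEB KO). All 8 slow-fiber markers were below 0 (median -0.69, 0 past the test), with WT replicate 3 at -0.84 from the WT mean, among the TFEB KO arrays at -0.90, -0.54 and -0.63. Of the adipocyte markers, 6 of 8 were measured (median 0.37, 0 past the test), and TFEB KO replicate 1 stood apart at 1.47. Erythroid markers (5 of 8 measured, median -0.12) and brown fat markers (4 of 4, median 0.06) were measured as well. Of the Schwann cell markers, 3 of 5 were measured (median -0.31, 1 past the test). Mbp gave -1.79 (adjusted p = 0.036 by limma), Pmp22 -0.31 and Sox10 -0.05. The part of these cell types and of fiber types in the carriers' values was not tested.

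TFEB binds the sequence CACGTG, the core of the CLEAR element of lysosomal genes, so the promoters of the carriers are shown where they hold it. Promoters of 300 bases, from 250 before to 50 after the start of transcription, were available from RefSeq (GRCm38.p6) for 23 of the 30 carriers, 32 promoters in all. CACGTG, which reads the same on both strands, was found in promoters of 4 of these carriers, or 17.4%. Over the whole table, 2187 of 27025 genes (8.09%) and 2349 of 32851 promoters (7.15%) hold it. The match is a description of these letters and not a site. The windows below run 5′ to 3′ on the strand of the gene, with CACGTG in capitals and 50 bases on either side. They lie at chr4:149774220-149774325 on the minus strand (Slc25a33, 8 bases before the start), chr8:22398299-22398404 on the minus strand (Slc25a15, 77 bases before), chr9:97111173-97111278 on the minus strand (Slc25a36, 187 bases before) and chrX:48623344-48623449 on the plus strand (Slc25a14, 54 or 184 bases before, by the start used).
Slc25a33: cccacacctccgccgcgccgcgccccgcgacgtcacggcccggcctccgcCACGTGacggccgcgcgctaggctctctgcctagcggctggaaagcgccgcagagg
Slc25a15: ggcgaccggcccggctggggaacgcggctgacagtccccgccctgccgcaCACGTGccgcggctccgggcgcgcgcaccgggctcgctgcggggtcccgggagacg
Slc25a36: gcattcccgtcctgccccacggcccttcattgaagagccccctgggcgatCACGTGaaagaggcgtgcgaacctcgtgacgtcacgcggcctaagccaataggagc
Slc25a14: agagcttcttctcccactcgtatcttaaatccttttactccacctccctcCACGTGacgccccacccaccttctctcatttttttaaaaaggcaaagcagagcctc
These 4 carriers did not move one way. The brightest probe sets gave -0.33 for the pyrimidine nucleotide carrier Slc25a33, 0.08 for the ornithine carrier Slc25a15, 0.30 for the pyrimidine nucleotide carrier Slc25a36 and 0.05 for the uncoupling-protein-like Slc25a14, with adjusted p of 0.40, 0.79, 0.24 and 0.89 by limma.

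ADP/ATP exchange, which hands the ATP made in the matrix to the fiber, rests on the pair of ANT genes. Slc25a4 (ANT1), the form of heart and muscle, read 14.30, 14.34 and 14.35 in WT and 14.34, 14.26 and 14.40 in TFEB KO. The groups overlapped and the difference was 0.00 with a 95% interval of -0.20 to 0.20, so a change beyond 0.20 either way lies outside it. These values are close to the top of the scale, where the brightest value of any probe set on any array was 14.93. Its dimmer probe sets, 3 in number, gave -0.04 to 0.06. Slc25a5 (ANT2), the form of most tissues, gave -0.07 (95% interval -0.38 to 0.24), and its 7 dimmer probe sets lay at -0.03 to 0.18. The brightest probe set of Slc25a5, like most of its dimmer ones, is of a class whose probes can match other transcripts. The brightest probe sets of Slc25a26 and Slc25a47 are of a similar class.

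Phosphate enters the matrix through Slc25a3, which supplies ATP synthase. Slc25a3 read 13.54, 13.53 and 13.47 in WT and 13.24, 13.37 and 13.29 in TFEB KO. The groups did not overlap, and the difference of -0.21 (standard error 0.09, 95% interval -0.41 to -0.02) had an adjusted p of 0.26 by limma. The ATP-Mg carriers exchange ATP-Mg for phosphate under the control of calcium and so adjust the adenine nucleotide content of the matrix. Among them Slc25a25 (APC3) had the largest difference of the family. It read 8.14, 7.44 and 8.23 in WT and 7.69, 7.17 and 7.11 in TFEB KO, a difference of -0.61 (standard error 0.23, 95% interval -1.14 to -0.09, adjusted p = 0.22 by limma), or 1.53-fold lower. WT replicate 2 lay below TFEB KO replicate 1, so the groups overlapped, and Slc25a25 had the widest spread between WT mice of the family. The related Slc25a24 (APC1) and Slc25a23 (APC2) gave -0.05 and 0.04, with intervals of -0.37 to 0.27 and -0.21 to 0.29.

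Of the cofactor and nucleotide carriers, 5 of 6 were below 0 (median -0.21), and none passed the test. Before adjustment, limma gave a p under 0.05 to 2 that fell and 1 that rose in TFEB KO. Among all genes the matching shares were 8.66% and 8.49%. With 6 carriers in the group, these counts are too small to compare with those shares. Slc25a42, which brings coenzyme A into the matrix, read 8.10, 8.00 and 7.79 in WT and 7.48, 7.69 and 7.39 in TFEB KO. Every TFEB KO array was below every WT array. The difference was -0.44 (standard error 0.12, 95% interval -0.72 to -0.16, adjusted p = 0.12 by limma), or 1.36-fold lower. Slc25a51, which carries NAD into mitochondria, read 10.46, 10.41 and 10.39 in WT and 10.05, 10.13 and 10.12 in TFEB KO. The 2 groups were tight and apart, and the difference was -0.32 (standard error 0.09, 95% interval -0.52 to -0.13, adjusted p = 0.10 by limma). Its other probe sets were at odds with each other, since one gave -0.26 with no overlap (adjusted p = 0.20 by limma) and one gave -0.01, with WT values of 9.25, 9.44 and 9.52 against 9.26, 9.41 and 9.51.

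The pyrimidine nucleotide carriers, which supply mitochondrial DNA and RNA synthesis, lay on opposite sides of 0. Slc25a36 (PNC2) read 9.17, 9.01 and 9.23 in WT and 9.48, 9.24 and 9.57 in TFEB KO. It was the only carrier with every TFEB KO array above every WT array, by 0.30 (standard error 0.12, 95% interval 0.03 to 0.56, adjusted p = 0.24 by limma), and TFEB KO replicate 2 exceeded WT replicate 3 by a small margin only. Its dimmer probe set gave 0.06. Slc25a33 (PNC1) read 8.76, 8.68 and 9.09 in WT and 8.13, 8.66 and 8.76 in TFEB KO, which overlapped, with a difference of -0.33 (95% interval -0.74 to 0.08). The difference between the 2 carriers was not tested. Slc25a26, which imports S-adenosylmethionine, gave -0.10, and its dimmer probe set gave -0.27 with no overlap (adjusted p = 0.18 by limma). The peroxisomal cofactor carrier Slc25a17 gave -0.09, and its dimmer probe set -0.23 (adjusted p = 0.28 by limma).

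**Figure D2:**
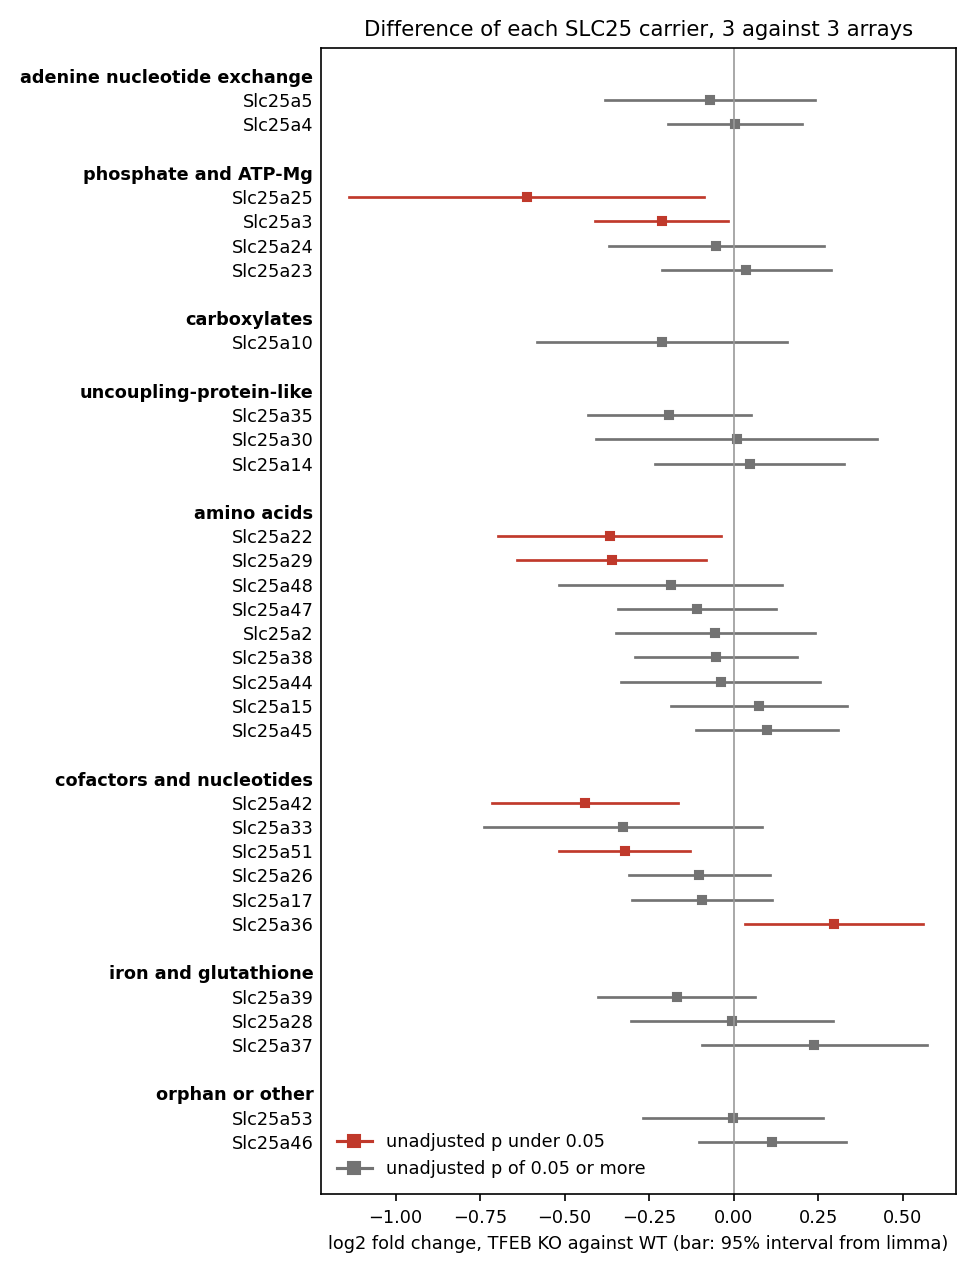
The log2 fold change of each SLC25 carrier's brightest probe set, TFEB KO against WT (square), with its 95% interval from limma (bar), n = 3 arrays a group, with red marking an unadjusted p under 0.05. The 7 red intervals leave out 0, 6 below and 1 above, and none of the 30 carriers passed the threshold after adjustment.

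Amino acid carriers were the largest group, with 9 members, of which 7 were below 0 (median -0.05). Slc25a22, which brings glutamate into the matrix, read 9.26, 9.57 and 9.03 in WT and 8.86, 9.05 and 8.85 in TFEB KO. The lowest WT array lay just under the highest TFEB KO array, and the difference was -0.37 (standard error 0.14, 95% interval -0.70 to -0.04, adjusted p = 0.24 by limma). Slc25a29, a carrier of basic amino acids, read 7.89, 7.57 and 7.62 in WT and 7.27, 7.50 and 7.22 in TFEB KO, with no overlap and a difference of -0.36 (standard error 0.12, 95% interval -0.64 to -0.08, adjusted p = 0.18 by limma). All 5 of its probe sets lay between -0.38 and -0.23. The tightest of them read 7.13, 7.00 and 7.10 in WT against 6.63, 6.81 and 6.72 (adjusted p = 0.10 by limma). These probe sets read the same gene on the same arrays and are not replicates of each other. Those at -0.383 and -0.347 are of the class whose probes can match other transcripts.

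The ornithine carrier Slc25a15, which serves the urea cycle in liver and the use of arginine and ornithine elsewhere, was read differently by its 2 probe sets. The brightest read 8.55, 8.75 and 8.68 in WT and 8.71, 8.58 and 8.92 in TFEB KO, a difference of 0.08 with overlap. The dimmer one read 6.82, 6.81 and 6.62 in WT and 6.37, 6.18 and 6.00 in TFEB KO. It was lower on every TFEB KO array, by -0.56 (standard error 0.12, 95% interval -0.84 to -0.29), and had the smallest adjusted p of all 61 probe sets of the family, 0.061 by limma. With the mean of both probe sets in place of the brightest, the fold change of Slc25a15 turned to -0.24. Which stretch of the transcript each probe set matches was not known here. The second ornithine carrier, Slc25a2, gave -0.05 and was the only carrier with a mean below the 25th percentile of all probe sets.

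The other amino acid carriers lay at -0.19 to 0.10. Slc25a44, which imports branched-chain amino acids, gave -0.04, and its dimmer probe sets gave -0.24 with no overlap (adjusted p = 0.30 by limma) and 0.01. Slc25a38, the glycine carrier needed for heme synthesis, gave -0.05. The 3 carriers placed here by family likeness gave -0.19 (Slc25a48, linked to choline), -0.11 (Slc25a47) and 0.10 (Slc25a45, with WT arrays at 6.39, 6.24 and 6.26 and TFEB KO arrays at 6.46, 6.32 and 6.40). The dimmer probe set of Slc25a48 was of the opposite sign, at 0.16 with no overlap (adjusted p = 0.43 by limma).

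Iron and glutathione carriers gave no shared direction. Slc25a37 (mitoferrin 1), which brings iron into mitochondria, read 7.78, 7.96 and 8.26 in WT and 8.24, 8.06 and 8.42 in TFEB KO, an overlapping difference of 0.24 (95% interval -0.09 to 0.57, adjusted p = 0.46 by limma). Its relative Slc25a28 (mitoferrin 2) gave -0.00, with TFEB KO replicate 1 at 8.61 and the other TFEB KO arrays at 9.00 and 9.09. Slc25a39, which imports glutathione, gave -0.17, and its 2 dimmer probe sets gave -0.15 and -0.35, the latter with no overlap (adjusted p = 0.17 by limma). As for Slc25a5, its brightest probe set is of a class whose probes can match other transcripts. The probe set at -0.15 is of that class too, and the one at -0.35 is not.

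The dicarboxylate carrier Slc25a10, which exchanges malate or succinate for phosphate, gave -0.21 (95% interval -0.58 to 0.16) and 0.04 on its dimmer probe set. Of the carriers that resemble uncoupling proteins, Slc25a14 gave 0.05, Slc25a30 gave 0.01 and Slc25a35 gave -0.19. Slc25a30 varied most between TFEB KO mice, at 8.80, 8.60 and 8.11, and its 4 dimmer probe sets lay at -0.15 to 0.08. Slc25a46, which shapes the outer membrane, read 10.37, 10.48 and 10.31 in WT and 10.60, 10.46 and 10.44 in TFEB KO, and both of its probe sets gave 0.11. The orphan Slc25a53 gave -0.00 (95% interval -0.27 to 0.26).

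Probe sets of one gene often differed. Of the 30 carriers, 16 are read by 1 probe set and 14 by several. Of the 31 dimmer probe sets, 17 had the sign of the brightest and 14 the other. At an unadjusted p under 0.05, 8 of the 31 were lower and none was higher, against 10.9% and 6.99% of all 7987 dimmer probe sets that name 1 gene. At least 1 probe set was at that level in 11 of the 30 carriers (23.4% of all genes) and in 7 of the 14 with several probe sets (34.9% of all genes with several). Probe sets of a gene are not independent of each other. None of the 61 passed the test.

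**Figure D3:**
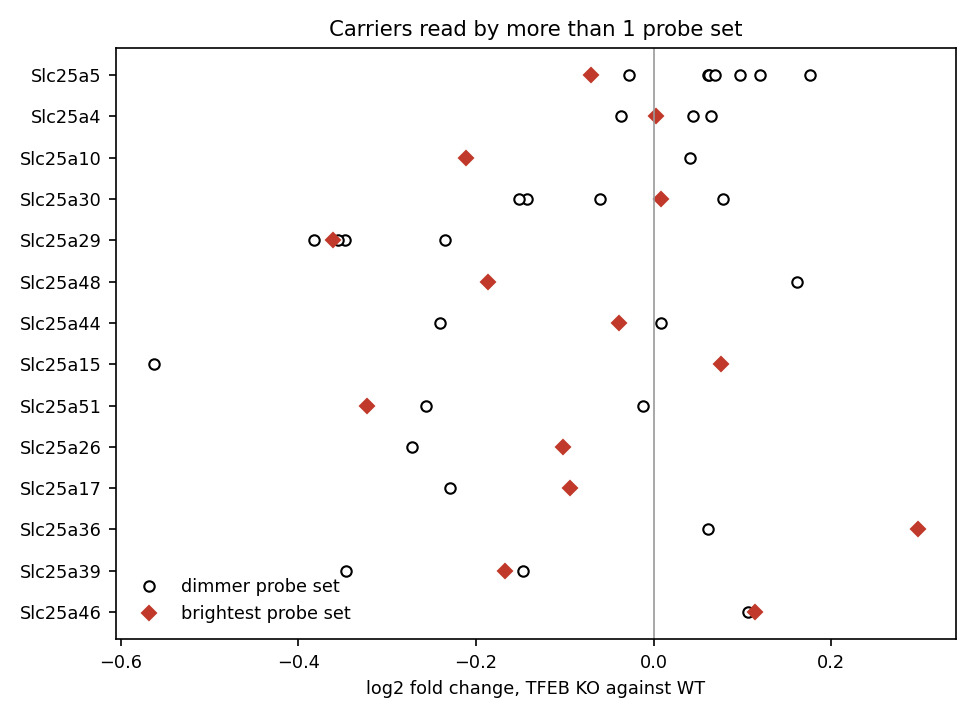
Log2 fold changes of all probe sets of the 14 SLC25 carriers read by more than 1, with a red diamond for the brightest and open circles for the dimmer ones. The symbols of Slc25a29 lie together at -0.38 to -0.23, whereas those of Slc25a15 are far apart at 0.08 and -0.56.

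The 3 measured carriers excluded by the rule were all below 0. Slc25a11, the malate carrier of the shuttle that brings reducing equivalents into mitochondria, gave -0.37 (adjusted p = 0.10 by limma), the aspartate carrier Slc25a13 gave -0.31 (adjusted p = 0.25) and the carnitine carrier Slc25a20 gave -0.10 (adjusted p = 0.79). In Slc25a11 and Slc25a13 the groups did not overlap and the unadjusted p was under 0.05 by limma. Of all genes, 12.9% were lower without overlap and 8.66% were lower at an unadjusted p under 0.05. With 3 carriers, these counts are too small to compare with those shares. A difference between the excluded carriers and the 30 members was not tested. A further list held 24 proteins of the mitochondrial membranes whose symbols are not Slc25a, most of them transporters. Of the 17 measured, among them the voltage-dependent anion channels and the carrier homologs Mtch1 and Mtch2, which also count as SLC25 proteins, 13 were below 0 (median -0.11) and none passed the test. Abcb8, an ABC transporter of the inner membrane, gave -0.46 (adjusted p = 0.082 by limma), and Letm1, an ion exchanger, gave -0.42 (adjusted p = 0.12).

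Genes that make or use the carriers' substrates were counted in 6 lists. Of the 11 measured genes of adenylate and creatine metabolism (14 listed), 7 were below 0 (median -0.04) and none passed the test. Gatm and Gamt, which make creatine in successive steps, lay on opposite sides at -0.57 and 0.42 (adjusted p = 0.055 and 0.12 by limma). Of 20 iron, iron-sulfur and heme genes (25 listed), 13 were below 0 (median -0.09) and none passed. Hmox1, which degrades heme, gave 0.31, and the ferritin chain Fth1 gave -0.22 (adjusted p = 0.26 and 0.30). Of 14 genes that make coenzyme A, thiamine, NAD or FAD cofactors (18 listed), 6 were below 0 (median 0.01) and none passed. Pank3, which starts coenzyme A synthesis, gave 0.34, and Nampt, which salvages nicotinamide for NAD, gave 0.28 (adjusted p = 0.15 and 0.20). Those 2, named for the smallest p of the list, were above 0. The coenzyme A carrier Slc25a42 and the NAD carrier Slc25a51 were below 0, though 1 dimmer probe set of Slc25a51 gave -0.01. The differences between them were not tested. The list had 8 genes above 0, and its 6 below included Nmnat1 (-0.23), Flad1 (-0.26) and Nnt (-0.66), with adjusted p of 0.22, 0.22 and 0.27 by limma.

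Ornithine, arginine and polyamine metabolism was the only list of substrate genes with calls in the main fit. Among its 13 measured genes (16 listed) 2 were called higher, against 0.871% of all genes, and its median was 0.01. The list was chosen with earlier results of these data known, so that share is no independent background for the count. Odc1, which turns ornithine into the polyamine putrescine, read 11.69, 11.76 and 11.85 in WT and 12.34, 12.35 and 12.45 in TFEB KO and rose by 0.61 (standard error 0.09, adjusted p = 0.025 by limma). Sat1, which acetylates polyamines for export or breakdown, read 7.59, 7.89 and 7.44 in WT and 8.35, 8.21 and 8.37 in TFEB KO and rose by 0.67 (standard error 0.13, adjusted p = 0.046 by limma). In neither gene did the groups overlap. Both calls were fragile: Odc1 kept its call without TFEB KO replicate 1 only, with an adjusted p of 0.062 to 0.11 by limma without any other array, and Sat1 lost it without any array (adjusted p 0.056 to 0.18). Of 16 genes of one-carbon, S-adenosylmethionine and glutathione metabolism (20 listed), 10 were above 0 (median 0.19) and none passed. Shmt1 and Mthfd2, enzymes of the folate cycle in cytosol and mitochondria, gave -0.52 and 0.50 (adjusted p = 0.068 and 0.095 by limma). At an unadjusted p under 0.05, 7 of the 16 were higher and 3 lower, against 8.49% and 8.66% of all genes. The glutathione genes Gclc, Gclm, Gss, Gsr, Gpx1 and Gpx4 lay at 0.20 to 0.67 (adjusted p 0.14 to 0.30 by limma). In the whole list 6 genes were below 0. This list too was chosen with earlier results known, so its counts were not read as a result.

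Catabolism of branched-chain amino acids and glutamate stood lowest of the lists. Of 16 measured genes (20 listed), 14 were below 0 (median -0.20) and none passed the test. Ivd, which acts in leucine breakdown, read 10.44, 10.26 and 10.28 in WT and 9.36, 9.88 and 9.69 in TFEB KO, a difference of -0.68 (adjusted p = 0.055 by limma). Bckdhb, a subunit of the branched-chain ketoacid dehydrogenase, gave -0.49 (adjusted p = 0.062). The carrier that brings branched-chain amino acids in, Slc25a44, was within 0.1 of 0 on its brightest probe set. Its dimmer probe sets gave -0.24 with no overlap and 0.01. The glutamate carrier Slc25a22 gave -0.37 (adjusted p = 0.24 by limma). Differences between these carriers and the list were not tested.

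**Figure D4:**
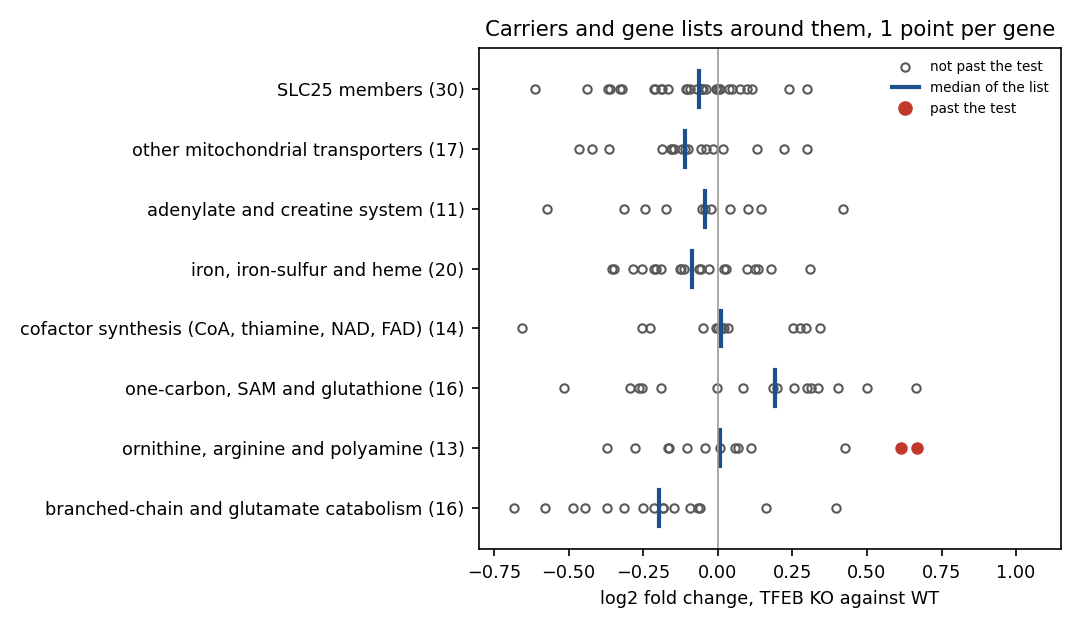
Log2 fold changes of the SLC25 carriers and of 7 lists of genes around them, 1 point per gene (brightest probe set) with the number of genes measured in parentheses and a blue line at the median. Filled red points mark the 2 genes past the test, Odc1 and Sat1, both in the ornithine, arginine and polyamine list, and the carriers' median of -0.06 lies between those of the lists, -0.20 and 0.19.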

How the data were processed

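Muscle RNA of the 6 mice was labelled as biotinylated cRNA and hybridised to Affymetrix arrays, 1 per mouse. The deposited values are log2 RMA summaries, made by the authors with the R package affy (version and settings were not stated). RMA's normalization would largely remove a change shared by most genes. Of 22690 probe sets, 64 controls were left out and 22626 were tested; 20380 name 1 gene by the platform annotation, 691 several and 1555 none, and 20351 of the 20380 were found by Entrez ID among RefSeq genes, with 0 symbols changed.

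Groups were compared with limma 3.58.1 (lmFit, eBayes) under R 4.3.3. Tests were two-sided, p-values were adjusted over all probe sets by the Benjamini-Hochberg method, the threshold was 0.05, and the fit was tested on simulated data. Tables and figures were made with Python 3.11.15, pandas 2.3.3, NumPy 2.4.6, SciPy 1.17.1 and matplotlib 3.10.9. Every member of the family is named, with array values for those at an unadjusted p under 0.05 and for the 4 largest differences each way. Other lists give genes past the test or, where there is none, the 2 with the smallest p. Marker lists are the exception and are given mainly as counts and medians. Individual array values and genes outside this rule were added after they had been seen. The members and lists were chosen with earlier results of these data known. Alternatives left out each array in turn, left out dim probe sets (under the 25th percentile), averaged a gene's probe sets or repeated quantile normalization. Others aligned the 75th percentile of the arrays, weighted arrays, moderated with a trend and robustly, blocked on the replicate number, or used Student's t-test. The study names that test among its general statistics, but the text used here does not name the test behind its array results. Arrays give no depth, and their number limits the precision.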

Additional observations from a re-analysis of the deposited data

How the results depend on the processing

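None of the 30 carriers passed the test in either direction under the alternatives run with limma, leaving out any array included. The same held with Student's t-test after adjustment. Student's t-test without adjustment called 3 lower (Slc25a3, Slc25a42 and Slc25a51) and 0 higher. At an unadjusted p under 0.05 the count of lower carriers was 6, or 3 by Student's t-test and 8 when probe sets were averaged. Without single arrays it was 2 to 6 (2 without WT replicate 1, 3 without TFEB KO replicate 3). The count of higher carriers was 1, or 0 by Student's t-test, 0 when probe sets were averaged, and 0 to 2 without single arrays. It was 0 without WT replicate 1, WT replicate 2, TFEB KO replicate 1 or TFEB KO replicate 3, and 2 without WT replicate 3. Carriers with every TFEB KO array below every WT array numbered 4, or 8 when probe sets were averaged and 5 to 8 without single arrays. Those with every TFEB KO array above numbered 1, or 2 when averaged and 1 to 3 without single arrays. Fewer arrays overlap less. Shares of all genes are given for the main fit only. The counts under the alternatives, those at an unadjusted p under 0.05 included, thus lack a background and were not read as a result about the carriers. The median fold change was -0.12 to -0.0379 without single arrays, and 19 to 23 carriers lay below 0.

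Of the carriers, 18 kept their direction under the alternatives run and 12, near 0, turned under at least 1. Slc25a4 was at -0.0380 with a second quantile normalization, -0.00625 with the 75th percentile shift and -0.000187 with array weights. Slc25a30 was at -0.00486 and -4.42e-05 under the first 2 of these, and at -0.0535 when its probe sets were averaged. Averaging probe sets also turned Slc25a5 to 0.0608 and Slc25a15 to -0.24. Slc25a53 was at 0.0157 with quantile normalization and 0.0122 with array weights, which also turned Slc25a28 to 0.0202 and Slc25a44 to 0.0012. Ranges without single arrays that crossed 0 were Slc25a2 -0.17 to 0.0731, Slc25a4 -0.0318 to 0.0385, Slc25a5 -0.19 to 0.0248, Slc25a14 -0.0207 to 0.16, Slc25a15 -0.0152 to 0.15, Slc25a23 -0.0266 to 0.14, Slc25a24 -0.15 to 0.0694, Slc25a28 -0.0980 to 0.14, Slc25a30 -0.14 to 0.21, Slc25a38 -0.10 to 0.0282, Slc25a44 -0.13 to 0.0900 and Slc25a53 -0.0861 to 0.0762. The causes were not tested.

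Same-numbered arrays of the groups share only a number (correlations of their deviations 0.088, 0.048 and 0.265). With the replicate number as a block, 0 carriers were called, and Sat1 was no longer called (adjusted p = 0.071 by limma). Sat1 also missed by limma with the 75th percentile shift (0.050) and array weights (0.053). By Student's t-test after adjustment, Tfeb (-1.58, adjusted p = 0.13), Odc1 (0.13) and Sat1 (0.21) missed. The study's own array test is not named in the text used here, so this is not a result of that test. Branched-chain and glutamate genes called lower numbered 0, but 2 with quantile normalization or array weights and 3 with trended moderation or probe sets averaged. With averaged probe sets 1 other membrane transporter, 2 adenylate and creatine genes, 1 one-carbon gene and 1 ornithine and polyamine gene were also called lower. Array weights or quantile normalization called 1 adenylate and creatine gene lower, array weights also 1 one-carbon gene, and leaving out TFEB KO replicate 1 called 1 adenylate and creatine gene lower and 1 one-carbon gene higher. Shares of all genes called under these settings are not given, so these list counts lack a background and were not read as a result. To pass, a carrier had to differ by 0.43 to 1.17, depending on its spread, and a smaller difference than its own value could not be called with 3 arrays a group.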
